A study of Homo sapiens with 12 samples.

Results

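The Fe(II)/2-oxoglutarate dioxygenases are enzymes that hold a ferrous iron atom in the active site and use oxygen and 2-oxoglutarate to hydroxylate or demethylate their substrates. A list of 49 human genes of this superfamily was looked up by symbol among the 63677 genes of the count file, and all 49 were found. The list was chosen by gene identity and not by expression, though with earlier results of these data known. It was sorted into 6 role groups: 17 JmjC histone demethylases, 3 TET enzymes, 9 AlkB homologs, 4 hydroxylases of hypoxia-inducible factor (HIF), 6 procollagen and endoplasmic reticulum (ER) prolyl and lysyl hydroxylases, and 10 other hydroxylases. Of these genes, 47 passed the filter on low counts and were tested, while PLOD2 and RIOX1 were not. The libraries came from JEKO1, JVM2 and MAVER1, established cell lines of mantle cell lymphoma (MCL, 3 in all), each cultured for 48 h in 4 ways: control (Ctrl), ironomycin (Irono), ibrutinib (Ibru) or ironomycin with ibrutinib. Ironomycin is a salinomycin derivative that retains iron in lysosomes, and ibrutinib inhibits the kinase BTK of the B-cell receptor pathway. Ironomycin was given at 50 nM to JEKO1 and at 250 nM to JVM2 and MAVER1. Ibrutinib was given at 0.5 μM to JEKO1, 1.5 μM to JVM2 and 6.25 μM to MAVER1, and the serum in the medium was lower for JVM2, so dose, serum and cell line cannot be told apart. Each line gave 1 library per treatment, the line served as the replicate (n = 3 per treatment), and nothing in the labels gives repeat cultures of a line. P-values rest on the spread left among the libraries after the terms of each fit. In comparisons that pool the libraries with and without ibrutinib each line counts 2 times per side, and in those within a line the 2 libraries per side differ in ibrutinib.

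Many of these enzymes are known to lose activity when cells lack iron or oxygen or when succinate or fumarate accumulates, to a degree that differs between them. The best known oxygen-sensing members are the EGLN prolyl hydroxylases, which mark HIF alpha subunits for destruction by the VHL ubiquitin ligase. Several members are themselves HIF targets in many cell types, and the chromatin members remove methyl groups from histones and DNA in B cells as elsewhere. The counts measure transcripts only, and enzyme activity and protein were not analysed here.

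Library totals ran from 35448523 to 38630809 reads with a median of 38212833, and the lowest total was that of JEKO1 with both drugs. The B-cell markers MS4A1, CD79A, CD79B, PAX5 and CD22 were present in every library, at 9.18 CPM (the share of a gene in the reads of its library, scaled by TMM) or more. CD79A stood at 237 to 280 CPM in the libraries of JEKO1 and MAVER1 with ironomycin and at 368 to 448 CPM in those without, while in JVM2 it stood at 417 and 448 CPM with and at 486 and 500 CPM without the drug. In the fit over all lines CD79A, CD79B and CD22 fell with ironomycin (log2 fold changes of -0.48, -0.48 and -0.74), and MS4A1 and PAX5 did not pass. CD22 was lower with ironomycin in JEKO1 (26.8 and 22.1 CPM without, 9.18 and 14.3 with) and MAVER1 (58.6 and 49.1 without, 18.0 and 24.7 with). In JVM2 it was higher, with 338 and 311 CPM without and 358 and 353 CPM with the drug. Of the MCL markers, CCND1 stood at 216 to 322 CPM in JVM2 and at 2180 to 4830 CPM in JEKO1 and MAVER1. SOX11 had no reads in JVM2, and CD5 reached at most 0.0549 CPM there, against 3.27 CPM or more in the other lines. CCND2 went the other way, with 243 to 270 CPM in JVM2 and at most 0.757 CPM in the other lines. In JEKO1 and MAVER1, CD5 was lower and SOX11 higher with ironomycin, both with and without ibrutinib. Summed T-cell markers stayed between 0.0264 and 3.23 CPM, myeloid markers between 0.781 and 8.73 CPM, and epithelial and stromal markers between 3.82 and 56.9 CPM. The share of reads on mitochondrial genes was lower with ironomycin in each line, and it was 2.05% in the JEKO1 control and 0.883% in JEKO1 with both drugs. In bulk RNA, fewer cells of a type and less RNA per cell cannot be told apart. The part of marker levels and of the mitochondrial share in the results below was not tested.

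Most dioxygenase genes, like most genes tested, differed in level between the cell lines. Levels are given as CPM scaled by TMM, a normalization that assumes that most genes are unchanged. In a test on the cell line terms of the fit (quasi-likelihood F-test of edgeR, adjusted over 18674 genes by the Benjamini-Hochberg method), 45 of the 47 tested members differed between the lines, where 90.0% of all tested genes did so. Of these, 19 differed by at least 1 on the log2 scale between the highest and the lowest line. The share of all tested genes at that difference was not counted, so the 19 are a description only. KDM6B, a demethylase of histone H3 lysine 27, and JMJD6 did not pass (adjusted p = 0.0757 and 0.281). In this test the 4 libraries of a line differ in treatment and are not repeat cultures of a treatment. Its p-values therefore do not measure the spread between repeat cultures of a line.

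**Figure D1:**
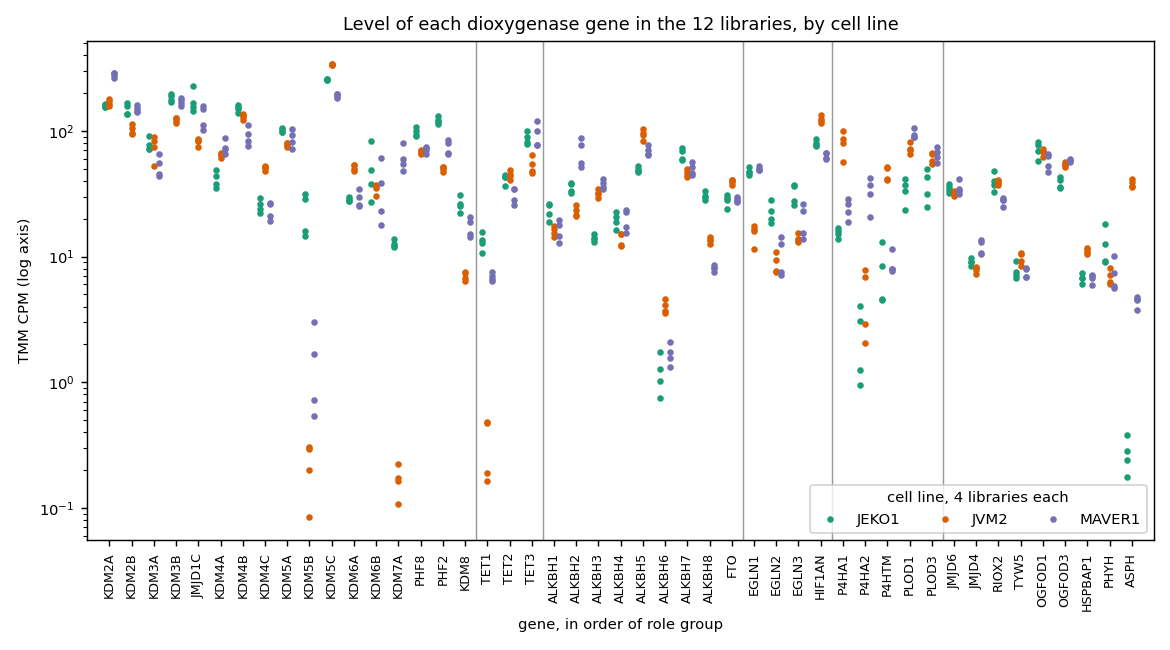
Level of the 47 tested dioxygenase genes in the 12 libraries, in TMM CPM on a log axis, with 4 libraries per cell line and genes ordered by role group between the vertical lines. KDM7A and TET1 in JVM2 and ASPH in JEKO1 lie far below their levels in the other lines, KDM5B is far higher in JEKO1 than in JVM2 and MAVER1, while JMJD6 lies between 30.2 and 41.8 CPM in all 12 libraries.

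Among the histone demethylases, KDM5B, which acts on histone H3 lysine 4, was mainly a transcript of JEKO1. It had 581 to 1327 reads in the libraries of JEKO1, 3 to 11 in those of JVM2 and 20 to 114 in those of MAVER1, and the ranges did not overlap. In the controls the level in JEKO1 was 79.9-fold that in JVM2 (adjusted p for the difference between lines = 1.71e-09). KDM7A, a PHD-finger demethylase of histone H3 lysines 9 and 27, stood at 48.3 CPM in the MAVER1 control, at 12.2 CPM in the JEKO1 control and at 0.171 CPM, or 6 reads, in the JVM2 control (adjusted p = 4.51e-11). TET1, an oxidase of 5-methylcytosine, had 454 to 627 reads in JEKO1 and only 6 to 17 in JVM2 (adjusted p = 2.27e-08). Its paralogs TET2 and TET3 differed less, with 43.2, 48.8 and 25.7 CPM for TET2 and 81.2, 46.3 and 77.8 CPM for TET3 in the JEKO1, JVM2 and MAVER1 controls.

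ASPH, the hydroxylase of aspartyl and asparaginyl residues in EGF-like domains, was present mainly in JVM2. Its control level was 41.7 CPM in JVM2, 3.76 CPM in MAVER1 and 0.176 CPM in JEKO1, where it had 7 to 15 reads per library (adjusted p = 5.59e-11). The collagen enzymes also separated the lines. P4HA2, a catalytic subunit of collagen prolyl 4-hydroxylase, stood at 37.3 CPM in the MAVER1 control, 2.88 CPM in JVM2 and 1.26 CPM in JEKO1. Its paralog P4HA1 was highest in JVM2, with 87.0 CPM against 28.9 in MAVER1 and 16.8 in JEKO1. P4HTM, a transmembrane prolyl 4-hydroxylase of the ER, stood at 40.6 CPM in JVM2 and at 4.55 and 8.02 CPM in JEKO1 and MAVER1. Thus JVM2 had the most P4HA1 and P4HTM, MAVER1 the most P4HA2 and JEKO1 the least of all 3, and each gene differed between lines by more than 2 on the log2 scale.

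Levels of different genes were compared per kilobase of exon (CPM per kb). Among the histone demethylases KDM5C had the highest control level in JEKO1 and JVM2, at 29.0 and 38.2 CPM per kb, and KDM2A in MAVER1, at 26.8 CPM per kb. Of the AlkB homologs ALKBH7, a mitochondrial protein, was highest in JEKO1 and JVM2 with 47.2 and 32.5 CPM per kb, and in MAVER1 the DNA repair enzyme ALKBH2 was highest with 38.5. The main HIF prolyl hydroxylase EGLN1 reached 6.46, 2.29 and 7.27 CPM per kb in JEKO1, JVM2 and MAVER1. The asparaginyl hydroxylase HIF1AN reached 5.42, 8.58 and 4.29. Of the 2 members outside the tests, the lysyl hydroxylase PLOD2 had 0 to 9 reads per library, and RIOX1, a histidyl hydroxylase of a ribosomal protein, was listed at 0 in all 12. Whether the counting or its annotation left RIOX1 out was not tested, so its 0 is not a measure of expression. For a gene whose reads were counted, a count of 0 allows a level of up to 0.0777 to 0.0846 CPM in these libraries. This is 3 counts over the library total, without TMM scaling, and covers counting error only.

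The question of the ironomycin libraries was how transcripts of iron-dependent enzymes stood after an agent that withholds iron. In the comparison of ironomycin with control, 0 of the 47 tested members passed an adjusted p of 0.05 by edgeR's quasi-likelihood test, while 0.584% of all tested genes did so (109 of 18674). An unadjusted p under 0.05 was reached by 6 of the 47 tested members and by 4198 of the 18674 tested genes. With DESeq2 in place of edgeR, 5 members passed, KDM4C, KDM5B and EGLN2 with higher and ALKBH2 and ALKBH4 with lower levels, and 12.4% of all tested genes passed. Without JVM2 1 member passed, KDM6B, and 9.10% of all tested genes. The median log2 fold change was 0.04 over the tested members and 0.03 over all tested genes. KDM5B had the largest fold change of the members, 1.01 ± 0.28 (SE, n = 3, adjusted p = 0.0873), followed by EGLN2 with 0.41 ± 0.13 (adjusted p = 0.111). Ibrutinib against control gave 0 members and 0.0% of all tested genes, and 0 members by DESeq2. An unadjusted p under 0.05 was reached by 0 members and by 680 of the 18674 tested genes. The fold changes of ibrutinib lay between -0.34 for KDM6B and 0.50 for P4HA2, both with an adjusted p of 1.0.

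With both drugs against control, 11 of the 47 tested members passed (23.4%), compared with 28.2% of all tested genes. Transcripts of 8 members rose, where 14.2% of all tested genes rose, and those of 3 fell, where 14.0% fell. The 8 were the histone demethylases KDM5B, KDM6B, JMJD1C, KDM4C and KDM4A, the DNA demethylase TET3, the HIF prolyl hydroxylase EGLN2 and the ER hydroxylase P4HTM, and the 3 that fell were ALKBH1, ALKBH2 and ALKBH4. The share of the members was near that of all genes. Without JEKO1, 0 members and 0.207% of all tested genes passed, without MAVER1 0 members and 0.117%, and without JVM2 16 members and 33.9%, so the members' count moved as that of all genes did. With library totals in place of TMM, 17 members rose and 0 fell (29.4% of all tested genes passed), and the median log2 fold change of all tested genes moved from 0.05 to 0.18. Under that scaling 3934 of 5497 calls among all genes were rises, against 2655 of 5268 with TMM.

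Both drugs against ironomycin alone gave 0 members and 0.0% of all tested genes, and 0 members passed by DESeq2. An unadjusted p under 0.05 was reached by 2 members (TET3 and KDM6B) and by 1970 of the 18674 tested genes. Both drugs against ibrutinib gave 12 members, 8 higher and 4 lower, against 23.3% of all tested genes, and with library totals the split was 12 higher and 2 lower. Without JEKO1 0 members and 0.00559% of all tested genes passed, and without MAVER1 0 members and 0.0318%. When the change with both drugs was set against the 2 single-drug changes added up, 0 members and 0.0% of all genes passed, with 0 members by DESeq2. Of the members KDM6B alone had an unadjusted p under 0.05 (log2 departure 0.88 ± 0.33, SE), as did 367 of the 18674 tested genes. These comparisons share libraries and are not independent of each other.

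**Figure D2:**
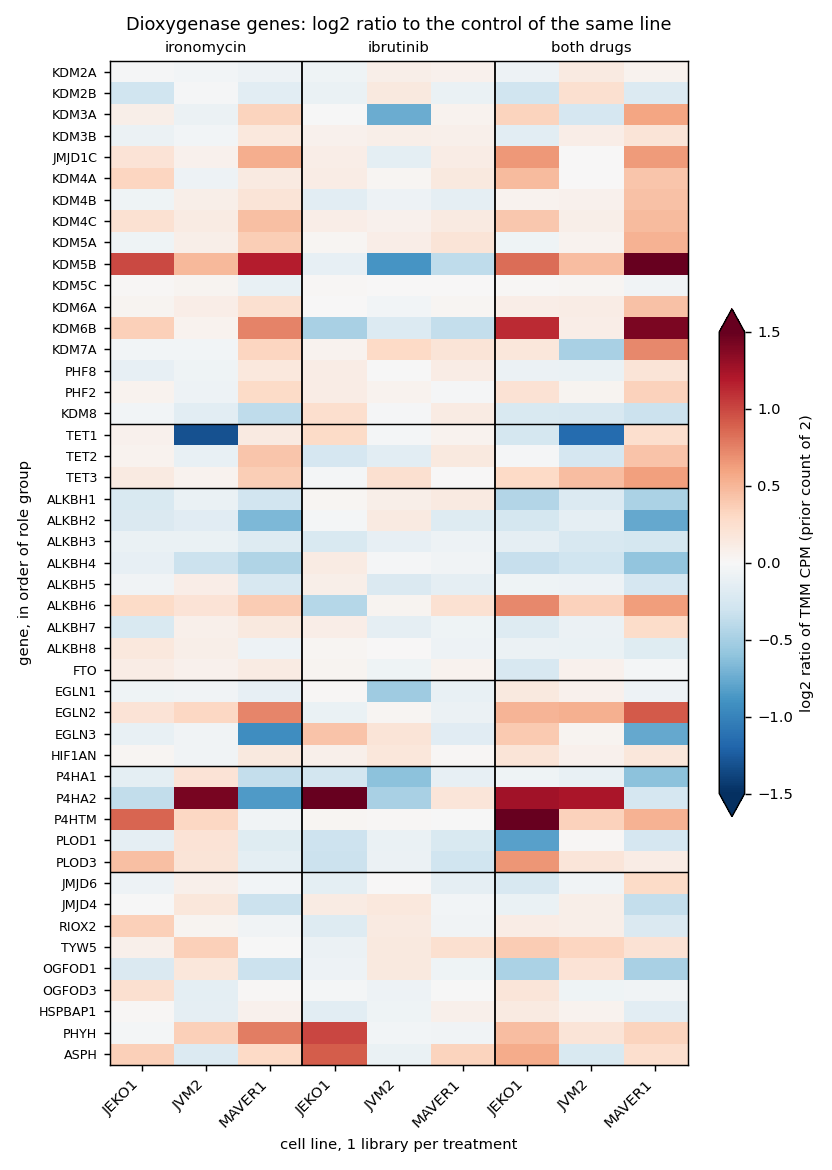
Log2 ratio of TMM CPM (prior count of 2) to the control library of the same line for the 47 tested dioxygenase genes, with 3 columns per treatment, 1 for each cell line, and colours limited to 1.5 on either side of 0. KDM5B and KDM6B are above control in all 3 lines with ironomycin and with both drugs, ALKBH1, ALKBH2 and ALKBH4 are below it, and the ratios of P4HA2 and TET1 differ in sign between lines.

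To use all libraries, the 6 with ironomycin were compared with the 6 without it in 1 fit with terms for line and ibrutinib. Upon ironomycin treatment, 14 of the 47 tested members passed (29.8%), compared with 35.9% of all tested genes. Of these, 10 rose and 4 fell, where 18.6% of all tested genes rose and 17.3% fell, so the share of members was again near that of all genes. The 14 made up 6 of 17 histone demethylases, 1 of 3 TET enzymes, 4 of 9 AlkB homologs, 1 of 4 HIF hydroxylases, 2 of 5 tested procollagen and ER hydroxylases and 0 of 9 tested other hydroxylases. Without JEKO1 8 members and 21.1% of all tested genes passed, without MAVER1 5 members and 13.2%, and without JVM2 15 members and 39.7%. KDM5B, EGLN2 and ALKBH4 passed in the full fit and with each of the 3 lines left out, and the other 11 calls were each lost without at least 1 line. The share of all tested genes that passed in every one of these fits was not counted, so this is a description only. The 12 libraries also form 6 pairs, with and without ironomycin in the same line and with the same ibrutinib treatment. All 6 pairs were higher with ironomycin for 8 tested members and for 14.8% of all tested genes, and lower for 5 members and for 15.5% of all genes.

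**Figure D3:**
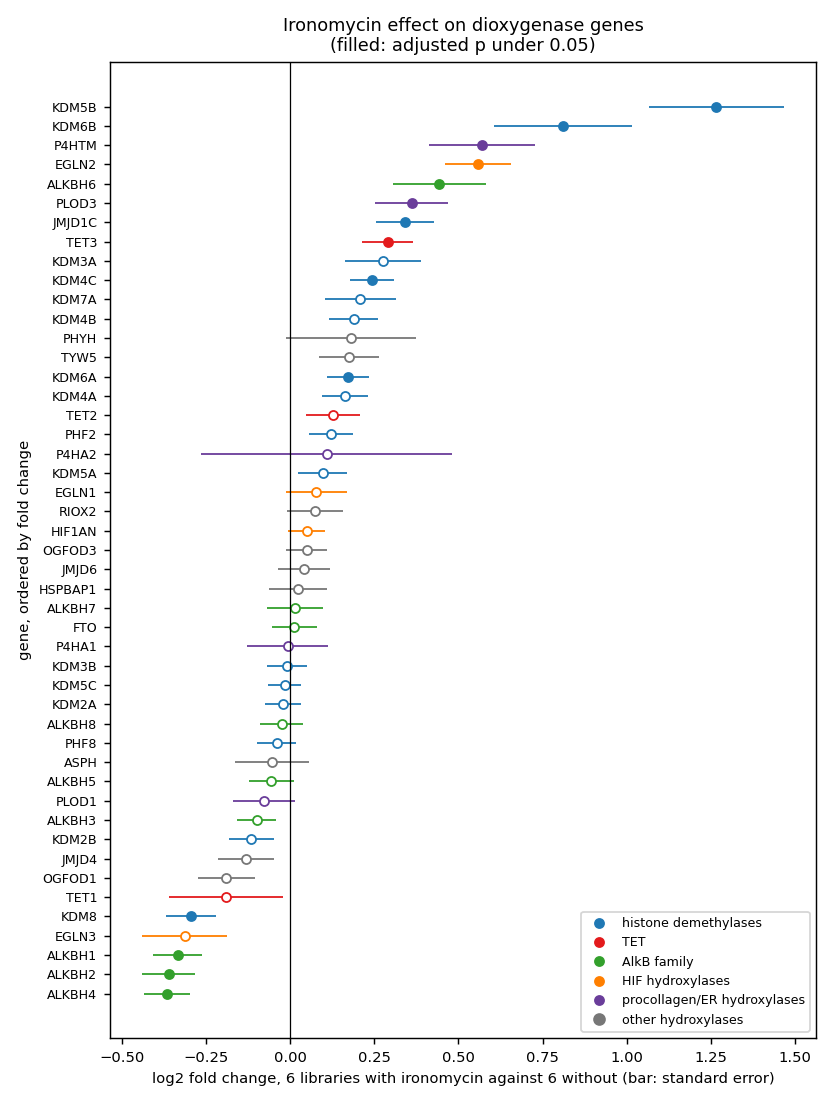
Log2 fold change of the 47 tested dioxygenase genes, 6 libraries with ironomycin against 6 without it, with bars of 1 standard error, coloured by role group and filled where the adjusted p of edgeR's quasi-likelihood test is under 0.05. KDM5B and KDM6B have the highest values, 1.27 and 0.81, and ALKBH4, ALKBH2 and ALKBH1 have the lowest, -0.37, -0.36 and -0.33.

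Among the histone demethylases, 5 rose and 1 fell. The values of KDM5B in JEKO1 were 16.0, 31.7, 14.6 and 28.5 CPM in the order control, ironomycin, ibrutinib and both drugs. In JVM2 they were 0.200, 0.302, 0.0839 and 0.296 CPM, or 7, 11, 3 and 11 reads. In MAVER1 they were 0.719, 1.69, 0.539 and 3.01 CPM. Within each line both libraries with ironomycin lay above both libraries without it, and the difference between lines was far larger than that between treatments. The log2 fold change was 1.27 ± 0.20 (SE, 6 against 6 libraries, adjusted p = 0.00123), the largest of the 47 members and the only one above 1. The promoter of KDM5B is shown because it is the member with the largest rise. It is the 250 bases before the RefSeq start on the minus strand of GRCh38.p14, chr1:202808422-202808671. Capitals mark the core of the HIF binding motif, searched as ACGTG or GCGTG on both strands.
KDM5B promoter: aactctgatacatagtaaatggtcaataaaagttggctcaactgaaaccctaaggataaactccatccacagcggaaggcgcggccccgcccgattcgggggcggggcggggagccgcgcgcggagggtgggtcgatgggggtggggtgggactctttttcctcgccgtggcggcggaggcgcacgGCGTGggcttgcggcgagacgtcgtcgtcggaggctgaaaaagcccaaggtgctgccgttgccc
It held 1 match. Such a match is a description of letters, and 43.2% of 35116 promoters of this length held at least 1.

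KDM6B removes methyl groups from histone H3 lysine 27, the mark set by EZH2. Its levels in control, ironomycin, ibrutinib and both drugs were 38.0, 48.6, 27.1 and 82.6 CPM in JEKO1. In MAVER1 they were 23.0, 38.4, 18.0 and 61.4 CPM, and in JVM2 34.9, 36.2, 30.2 and 37.3 CPM. In each line ibrutinib alone gave the lowest of the 4 values and the combination the highest. The log2 fold change for ironomycin was 0.81 ± 0.21 (SE, adjusted p = 0.0102), and the call was lost without JEKO1 (adjusted p = 0.0659) or without MAVER1 (adjusted p = 0.108). KDM6A, its X-linked paralog, rose by 0.17 on the log2 scale (SE 0.062, adjusted p = 0.0465), close to the threshold. That call was lost with RLE factors (adjusted p = 0.0610), with no low-count filter (0.161) and without JEKO1, JVM2 or MAVER1 (0.0698, 0.128 and 0.311), and the fold change without MAVER1 was 0.09.

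JMJD1C, a relative of the histone H3 lysine 9 demethylases KDM3A and KDM3B, stood at 144 CPM in the JEKO1 control and at 166, 155 and 227 CPM with ironomycin, ibrutinib and both drugs. In MAVER1 the 4 values were 102, 149, 111 and 159 CPM, and in JVM2 83.2, 87.0, 75.0 and 83.2 CPM. The JVM2 libraries with and without ironomycin lay close together, and the log2 fold change over all lines was 0.34 ± 0.087 (SE, adjusted p = 0.0102), with the call lost without JEKO1 (adjusted p = 0.0506) or MAVER1 (0.150). KDM4C, which acts on trimethylated lysines 9 and 36 of histone H3, rose by 0.24 (SE 0.065, adjusted p = 0.0129), a call lost without JEKO1 (adjusted p = 0.0837) or MAVER1 (0.139). Its relatives KDM4A and KDM4B had fold changes of 0.16 and 0.19 with adjusted p of 0.0828 and 0.0593. KDM3A, a demethylase of lysine 9, had 0.27 (adjusted p = 0.0763). Exons of KDM4A overlap those of another annotated gene on the same strand over 40.2% of their length, and how shared reads were counted is not given in the sources used here.

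KDM8, a JmjC protein that hydroxylates arginine residues, was the histone demethylase group's member that fell. It stood at 26.0, 25.3, 30.9 and 22.2 CPM in JEKO1, at 7.51, 6.70, 7.44 and 6.36 CPM in JVM2 and at 18.9, 14.4, 20.6 and 15.0 CPM in MAVER1, each in the order control, ironomycin, ibrutinib and both drugs. It was lower with ironomycin in all 6 pairs, by 0.29 on the log2 scale (log2 fold change -0.29, SE 0.074, adjusted p = 0.0100), and the call was lost without MAVER1 (adjusted p = 0.115). The other 11 histone demethylases did not pass, and KDM2A, KDM5C and KDM3B were nearest to 0, with fold changes of -0.02, -0.02 and -0.01.

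Among the TET enzymes, which oxidize 5-methylcytosine on the way to demethylation of DNA, TET3 rose. Its values in the order control, ironomycin, ibrutinib and both drugs were 81.2, 89.3, 79.3 and 100.3 CPM in JEKO1, 46.3, 47.9, 54.8 and 63.9 CPM in JVM2, and 77.8, 100.7, 77.9 and 119.4 CPM in MAVER1. The combination gave the highest value in each line, and the log2 fold change for ironomycin was 0.29 ± 0.076 (SE, adjusted p = 0.0120). Without MAVER1 it was 0.18 and did not pass (adjusted p = 0.154). TET2 had a fold change of 0.13 and did not pass. TET1 had 17 reads in the JVM2 control and in JVM2 with ibrutinib and 6 and 7 reads in the libraries with ironomycin, a difference that did not pass in that line (log2 fold change -1.43, SE 0.40, adjusted p = 0.0835), and in JEKO1 and MAVER1 the fold changes were -0.24 and 0.17.

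The AlkB homologs were the group with most falls. ALKBH1, which acts on transfer RNA, ALKBH2, which reverses alkylation damage in DNA, and ALKBH4, a demethylase of actin, each were lower with ironomycin in all 6 pairs. ALKBH4 stood at 20.6, 18.9, 22.5 and 16.2 CPM in JEKO1 in the order control, ironomycin, ibrutinib and both drugs. In JVM2 it stood at 15.2, 12.2, 15.1 and 12.4 CPM, and in MAVER1 at 23.4, 17.1, 22.5 and 15.5 CPM. No library with ironomycin reached a library without it in the same line. The log2 fold change was -0.37 (SE 0.069, adjusted p = 0.00243). The exons of ALKBH4 overlap those of ORAI2 on the other strand over 25.3% of their length, and without strand information reads of the 2 genes cannot be told apart there. The promoter of ALKBH4 is shown beside that of KDM5B as that of the member with the lowest p among those that fell, from the minus strand at chr7:102464864-102465113, with the same motif core in capitals.
ALKBH4 promoter: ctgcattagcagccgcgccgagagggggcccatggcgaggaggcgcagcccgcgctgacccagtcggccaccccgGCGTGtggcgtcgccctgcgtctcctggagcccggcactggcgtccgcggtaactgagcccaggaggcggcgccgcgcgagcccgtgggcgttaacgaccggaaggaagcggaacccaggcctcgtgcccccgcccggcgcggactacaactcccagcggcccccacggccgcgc
It also held 1 match.

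ALKBH2 showed its largest difference in MAVER1, with 88.2 and 77.3 CPM without ironomycin and 55.2 and 51.6 CPM with it. In JEKO1 it had 38.4 and 37.7 CPM without and 33.1 and 32.1 CPM with the drug, and in JVM2 23.5 and 25.8 against 21.0 and 21.5 CPM. The log2 fold change was -0.36 (SE 0.079, adjusted p = 0.00506), and without MAVER1 it was -0.22 and did not pass (adjusted p = 0.0601). For ALKBH1 it was -0.33 (SE 0.072, adjusted p = 0.00463; 0.0580 without MAVER1), with a range of 16.5 to 17.5 CPM without and 14.3 to 15.4 CPM with ironomycin in JVM2. These 3 falls also passed with library totals in place of TMM in this 12-library comparison, but not in that of both drugs with control. ALKBH6, in contrast, rose by 0.44 (SE 0.14, adjusted p = 0.0260) at low levels of 0.754 to 4.55 CPM. That call was lost without JEKO1, JVM2 or MAVER1 (adjusted p = 0.0934, 0.0542 and 0.115), and its exons overlap those of another gene on the same strand over 25.1% of their length. The m6A RNA demethylases FTO and ALKBH5, the DNA repair enzyme ALKBH3, ALKBH7 and ALKBH8 did not pass, with fold changes between -0.10 and 0.01.

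**Figure D4:**
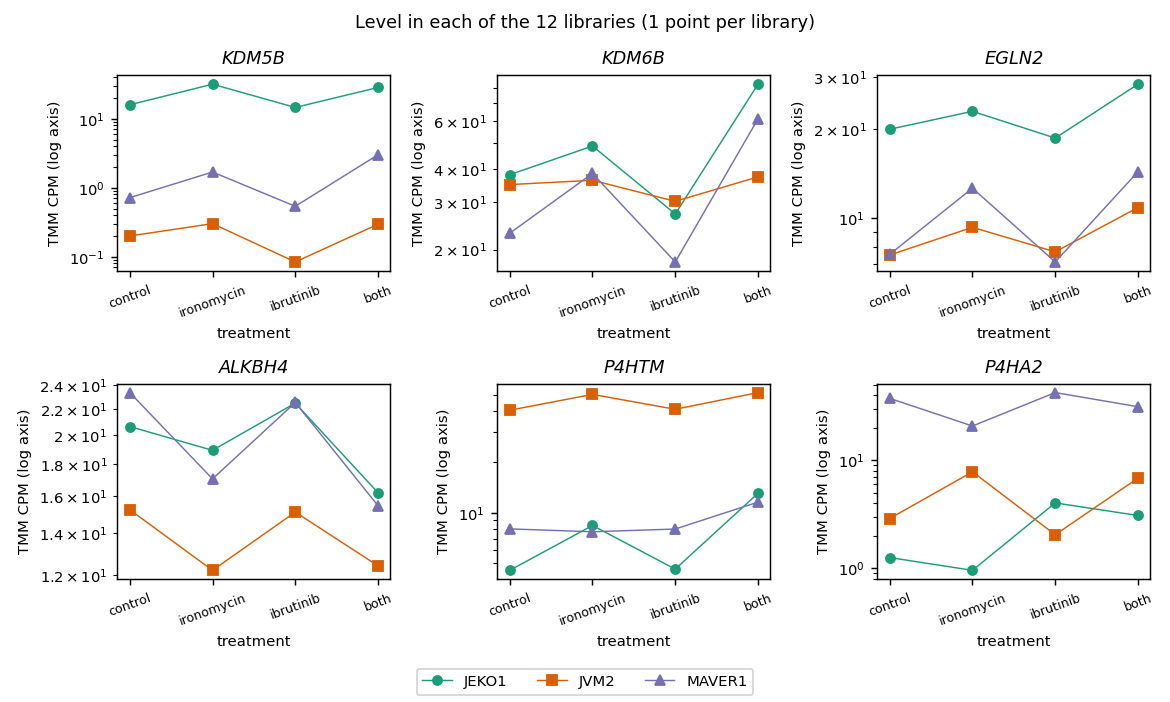
TMM CPM (log axes) of KDM5B, KDM6B, EGLN2, ALKBH4, P4HTM and P4HA2 in each of the 12 libraries, with 1 point per library and lines joining the 4 treatments of a cell line. EGLN2 is higher and ALKBH4 lower with ironomycin in each line, P4HTM differs most in JEKO1, and P4HA2 is higher with ironomycin in JVM2 and lower in MAVER1.

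Of the 4 HIF hydroxylases, EGLN2 rose. It stood at 20.0, 22.9, 18.6 and 28.3 CPM in JEKO1 in the order control, ironomycin, ibrutinib and both drugs. In JVM2 it stood at 7.51, 9.31, 7.69 and 10.9 CPM, and in MAVER1 at 7.55, 12.6, 7.11 and 14.4 CPM. In each line both libraries with ironomycin were above both without, and the combination was the highest. The log2 fold change was 0.56 ± 0.098 (SE, adjusted p = 0.00178). Its exons overlap the readthrough gene RAB4B-EGLN2 and a further gene on the same strand over 30.6% of their length, so part of its count is uncertain.

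EGLN1 and EGLN3, the paralogs whose transcription is known to be induced by HIF, did not pass. EGLN1 lay between 44.7 and 52.0 CPM in JEKO1, 11.5 and 17.4 CPM in JVM2 and 48.5 and 52.8 CPM in MAVER1, and the groups overlapped (log2 fold change 0.08). EGLN3 was lower in all 6 pairs, by a small amount in JEKO1 (27.6 and 37.3 CPM without against 25.5 and 36.2 CPM with ironomycin) and JVM2 (13.5 and 15.4 against 13.0 and 13.9 CPM). In MAVER1 it stood at 26.2 and 23.2 CPM without and at 13.7 and 15.4 CPM with ironomycin. The fold change over all lines was -0.31 (SE 0.13, adjusted p = 0.0701). HIF1AN, which blocks HIF transactivation by hydroxylating an asparagine, had 0.05 and did not pass.

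Of the 3 EGLN paralogs only EGLN2 passed, and a difference in response between the genes was not tested. Their promoters are shown as the 250 bases before the first listed RefSeq start on GRCh38.p14, with the same motif core in capitals. EGLN1 lies on the minus strand at chr1:231422288-231422537, EGLN2 on the plus strand at chr19:40798941-40799190 and EGLN3 on the minus strand at chr14:33951075-33951324.
EGLN1 promoter: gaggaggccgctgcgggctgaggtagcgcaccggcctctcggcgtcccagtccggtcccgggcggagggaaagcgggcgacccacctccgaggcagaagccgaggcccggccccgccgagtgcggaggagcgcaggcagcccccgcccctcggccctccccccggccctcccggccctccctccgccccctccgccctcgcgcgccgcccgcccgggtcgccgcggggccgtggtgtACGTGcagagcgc
EGLN2 promoter: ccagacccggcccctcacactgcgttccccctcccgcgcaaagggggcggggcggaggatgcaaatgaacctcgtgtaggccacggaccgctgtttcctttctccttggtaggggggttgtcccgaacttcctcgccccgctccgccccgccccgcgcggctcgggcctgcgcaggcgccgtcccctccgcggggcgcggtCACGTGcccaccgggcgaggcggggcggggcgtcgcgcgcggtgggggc
EGLN3 promoter: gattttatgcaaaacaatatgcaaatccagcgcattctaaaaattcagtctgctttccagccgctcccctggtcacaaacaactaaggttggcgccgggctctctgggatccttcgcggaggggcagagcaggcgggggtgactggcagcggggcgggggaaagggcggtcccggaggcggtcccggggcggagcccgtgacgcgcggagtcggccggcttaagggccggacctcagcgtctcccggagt
The core was found 1 time before EGLN1 and 2 times before EGLN2, where the 2 matches overlap on opposite strands, while the window before a second listed start of EGLN2 held 0. It was found 0 times in the window of EGLN3, which says only that these letters are not in it. Over the family, 38 of 63 promoters of 45 members held the core (60.3%), beside 43.2% of all promoters, and promoters of 1 gene can overlap and share a match, so these counts are a description only.

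Members known as HIF targets (EGLN1, EGLN3, P4HA1, P4HA2, PLOD1, PLOD2, KDM3A, KDM4B and KDM4C) were counted together. Of the 8 tested, 1 passed upon ironomycin treatment, KDM4C (12.5%, where 35.9% of all tested genes passed), and the median log2 fold change was 0.09, compared with 0.04 over all tested genes. With both drugs against control 1 passed, again KDM4C (12.5%, where 28.2% of all tested genes passed), and the median was 0.12 against 0.05.

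Among the procollagen and ER hydroxylases, P4HTM and PLOD3 rose. P4HTM stood at 4.55, 8.40, 4.63 and 13.0 CPM in JEKO1 in the order control, ironomycin, ibrutinib and both drugs. In JVM2 it stood at 40.6, 50.4, 41.1 and 51.7 CPM and in MAVER1 at 8.02, 7.71, 8.0 and 11.6 CPM. In MAVER1 only the library with both drugs was above the control, while in JEKO1 and JVM2 both libraries with ironomycin were. The log2 fold change was 0.57 ± 0.16 (SE, adjusted p = 0.0155), and the call was lost without JEKO1 (0.29, adjusted p = 0.0821). PLOD3, a lysyl hydroxylase and glycosyltransferase of collagen, rose by 0.36 (SE 0.11, adjusted p = 0.0230), and without JEKO1 the fold change was 0.18 (adjusted p = 0.176) and without JVM2 0.40 (adjusted p = 0.0550). It stood at 31.3 and 25.0 CPM without and at 42.9 and 49.7 CPM with ironomycin in JEKO1, while in MAVER1 the groups overlapped (68.4 and 55.5 against 61.8 and 74.2 CPM). PLOD1 and P4HA1 did not pass and had fold changes of -0.08 and -0.01.

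P4HA2 followed the cell line. In JVM2 it had 101 reads in control and 73 with ibrutinib, and 284 with ironomycin and 253 with both drugs, or 2.88, 2.04, 7.80 and 6.82 CPM. In MAVER1 it stood at 37.3 and 42.2 CPM without and at 20.7 and 31.2 CPM with ironomycin. In JEKO1 it stood at 1.26 and 0.957 CPM in the control and ironomycin libraries and at 4.02 and 3.08 CPM in those that had ibrutinib, so ibrutinib and not ironomycin separated the libraries there. Over all lines the log2 fold change for ironomycin was 0.11 ± 0.37 (SE, adjusted p = 0.845). The order of values in JVM2 and in MAVER1 was opposite.

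The 9 tested other hydroxylases gave 0 calls in this comparison, and 0 calls by DESeq2. An unadjusted p under 0.05 was reached by 1 of them and by 8617 of the 18674 tested genes. OGFOD1, a prolyl hydroxylase of a ribosomal protein, had the lowest p, with a log2 fold change of -0.19 (adjusted p = 0.102). The transfer RNA hydroxylase TYW5, the peroxisomal phytanoyl-CoA hydroxylase PHYH and ASPH had 0.18, 0.18 and -0.05. In JEKO1, PHYH stood at 18.3 CPM with ibrutinib against 9.15 CPM in control and 8.99 CPM with ironomycin. Exons of JMJD4 and RIOX2 overlap genes on the other strand over 53.8% and 27.6% of their length.

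Line by line, with 2 libraries with and 2 without ironomycin in each, 15 of the 47 tested members passed in JEKO1, 0 in JVM2 and 19 in MAVER1. Of all tested genes 33.3% passed in JEKO1, 2.27% in JVM2 and 32.3% in MAVER1. In JVM2 6 members had an unadjusted p under 0.05, a description only, as the share of all tested genes is not given for it. P4HA2 had the lowest p there (log2 fold change 1.57, SE 0.41, adjusted p = 0.0695). In JEKO1 the ER hydroxylase P4HTM had the largest rise, 1.21 ± 0.18 (SE, adjusted p = 0.00070), and 11 members rose and 4 fell (ALKBH1, ALKBH4, ALKBH7 and OGFOD1). In MAVER1 10 of 17 histone demethylases passed, 9 of them with higher levels, led by KDM5B with 1.90 ± 0.31 and KDM6B with 1.27 ± 0.26. EGLN3 and P4HA1 fell in MAVER1, with log2 fold changes of -0.77 (SE 0.14, adjusted p = 0.00191) and -0.42 (SE 0.13, adjusted p = 0.0294).

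A call in 1 line and not in another does not show a difference, so the ironomycin effect was also tested for a difference between the lines. Of the 47 tested members 2 passed, P4HA2 (adjusted p = 0.0450) and P4HTM (adjusted p = 0.0461), compared with 7.97% of all tested genes. For P4HA2 the log2 fold changes were -0.38 in JEKO1, 1.57 in JVM2 and -0.64 in MAVER1, and for P4HTM 1.21, 0.32 and 0.25. The call of P4HA2 was lost without JVM2 (adjusted p = 0.808) and that of P4HTM without JEKO1 (adjusted p = 0.876), and without JVM2 or without MAVER1 0 members passed (1.87% and 1.68% of all tested genes). Without JEKO1, 9 members passed, among them KDM6B, EGLN3 and TET1, beside 13.2% of all tested genes, and DESeq2 gave 7 beside 11.9%. KDM5B, with 0.98, 1.06 and 1.90 in the 3 lines, and KDM6B, with 0.99, 0.17 and 1.27, did not pass (adjusted p = 0.239 and 0.144).

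Genes around the dioxygenases were followed in the same comparison of 6 libraries with and 6 without ironomycin, where 35.9% of all tested genes passed. The 16 listed genes of 2-oxoglutarate metabolism make or consume the cosubstrate or clear its inhibitors. Of these, 11 passed, 10 of them lower, with a median log2 fold change of -0.29. Among those that fell were fumarate hydratase FH (-0.48, SE 0.069, adjusted p = 0.000872), the mitochondrial isocitrate dehydrogenase subunit IDH3A (-0.49, SE 0.066, adjusted p = 0.000716) and OGDH of the 2-oxoglutarate dehydrogenase complex (-0.39, SE 0.075, adjusted p = 0.00261). IDH1, the cytosolic enzyme that produces 2-oxoglutarate, rose by 0.51 (SE 0.11, adjusted p = 0.00548). Of 8 tested genes of iron supply and storage 6 passed, 4 of them higher, including the ferritin heavy chain FTH1 (0.63, SE 0.070) and the transferrin receptor TFRC (0.61, SE 0.13). TFRC stood at 439 and 485 CPM without and 892 and 928 CPM with ironomycin in JVM2, at 286 and 265 against 540 and 401 CPM in MAVER1, and at 239 and 221 against 263 and 226 CPM in JEKO1. With ironomycin alone against control, 1 of these 8 passed, FTH1 (0.59, adjusted p = 0.0394).

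Of 7 tested genes of the HIF subunits and the VHL complex 5 passed, 4 of them lower. HIF1A fell by 0.16 on the log2 scale (SE 0.055, adjusted p = 0.0383), as did the elongins ELOB (-0.48) and ELOC (-0.40) and the scaffold CUL2 (-0.29), and VHL itself had -0.09 (adjusted p = 0.139). EPAS1, which encodes HIF-2 alpha, rose by 0.89 (SE 0.27, adjusted p = 0.0242) but reached 9.20 to 24.6 CPM in JVM2 and at most 0.396 CPM in the other lines. Of 22 tested HIF targets outside the family 12 passed, 5 higher and 7 lower. The 5 that rose were DDIT4 (0.97), NDRG1 (0.78), VEGFA (0.75), BHLHE40 (0.67) and INSIG2 (0.45). The 7 that fell were SLC2A1 and the glycolysis genes LDHA, PGK1, ENO1, ALDOA, HK2 and PFKFB3, with fold changes from -0.89 for LDHA to -0.20 for HK2. The median over the 22 was 0.06, compared with 0.04 over all tested genes.

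The enzymes that oppose the demethylases were read beside them. Of 20 tested methyltransferases and cofactors 10 passed, 3 higher and 7 lower. The 3 histone H3 lysine 4 methyltransferases KMT2A, KMT2C and KMT2D rose by 0.38, 0.41 and 0.36, while EZH2 (-0.21), EED (-0.37), SUV39H1 (-0.35), SUV39H2 (-0.31), DNMT1 (-0.24), DNMT3B (-0.24) and WTAP (-0.26) fell. KDM1A, a demethylase that uses flavin and not iron, fell by 0.24 (SE 0.052, adjusted p = 0.00533), and KDM1B did not pass. Of 5 partners of the collagen hydroxylases 4 rose: SERPINH1 (0.98), P4HB (0.68), PPIB (0.46) and CRTAP (0.36). Of 10 other tested 2-oxoglutarate dioxygenases 4 passed. P3H1 (0.39) and P3H3 (2.41, with at most 1.25 CPM) rose, and the carnitine synthesis enzyme BBOX1 (-0.93) and the demethylase HR (-0.92) fell. HR stood at 57.4 and 63.1 CPM without and at 19.7 and 31.8 CPM with ironomycin in MAVER1. In the other lines it reached at most 0.678 CPM. BBOX1 stood at 34.7 and 13.5 CPM without and at 18.8 and 5.61 CPM with ironomycin in JEKO1 and was listed at 0 in MAVER1.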

How the data were processed

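RNA was sequenced from 12 cultures of 3 MCL cell lines, and the authors deposited a single table of raw read counts per gene for 63677 genes. The submitters' processing notes name STAR, GRCh37 and DESeq2, and the counting tool, the annotation and the use of strand are not given in the sources used here. All 12 columns of counts were matched to samples by their names, and 0 columns were left unused. Library totals ran from 35448523 to 38630809 reads.

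The tests used edgeR 4.0.16 under R 4.3.3 (quasi-likelihood F-test, TMM factors, filterByExpr on treatment) with terms for treatment and cell line over all 12 libraries. The ironomycin effect over all libraries was fitted with terms for line, ibrutinib and ironomycin, and its difference between lines with a term for ironomycin in each line. P-values were adjusted by the Benjamini-Hochberg method over 18674 tested genes, with a threshold of 0.05 and no minimum fold. Ratios used a prior count of 2 on the log2 CPM scale. The line is the replicate in the labels and was kept as a block: deviations of libraries of the same line from their treatment means had correlations of 0.926 to 0.976 (18 pairs), and those of different lines and treatments -0.684 to -0.127 (36 pairs). Exon lengths and overlaps came from GENCODE 29, and promoters from RefSeq on GRCh38.p14, for 45 of 49 members by symbol. The same steps were tested on simulated data with known changes.

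Alternatives were RLE factors (the size factors of DESeq2), library totals, no low-count filter, a mean of at least 10 reads, DESeq2 1.42.0, no replicate block, the 6 libraries of a comparison alone, a log2 fold change of at least 1, each line left out, and the current quasi-likelihood method of edgeR, which was added after seeing the data. Named are the members that passed, those with the highest and lowest fold changes, at least 1 per role group, and listed genes that passed or had the lowest p. Members and lists were chosen with earlier results of these data known. 1 listed B-cell marker is not reported here. Python 3.11.15, pandas 2.3.3 and matplotlib 3.10.9 were used for tables and figures.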

Additional observations from a re-analysis of the deposited data

Results flagged for a closer look

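The ironomycin effect on P4HA2 differed between the cell lines by a test of the difference itself (edgeR's quasi-likelihood test, adjusted p = 0.0450 over all tested genes), with a log2 fold change of 1.57 in JVM2, -0.38 in JEKO1 and -0.64 in MAVER1 and 2 libraries with and 2 without the drug in each line. Leaving out JVM2 gave an adjusted p of 0.808, leaving out JEKO1 0.00119 and leaving out MAVER1 0.201, and DESeq2 gave 0.108. The P4HA2 call was also lost by edgeR with library totals (adjusted p = 0.0516) and with the filter at a mean of at least 10 reads. The effect on P4HTM also differed between lines (adjusted p = 0.0461), where JEKO1 had 1.21, MAVER1 0.25 and JVM2 0.32. Leaving out JEKO1 gave an adjusted p of 0.876 for this gene, leaving out MAVER1 0.0899 and leaving out JVM2 0.0991, and DESeq2 gave 0.00695. JVM2 and MAVER1 had the same ironomycin dose of 250 nM and JEKO1 had 50 nM, so this dose and the line cannot be told apart for JEKO1. The dose of ibrutinib differed between all 3 lines.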

How the results depend on the processing

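No fold change of a member that passed, in the reported fit or in an alternative, changed sign between them. Without the replicate block (the cell line), the counts of members for both drugs against control, both drugs against ibrutinib and ironomycin over all libraries became 0, 0 and 0 (0.0% of all tested genes in each), where they were 11, 12 and 14. With only the 6 libraries of a comparison in the fit, the first 2 of these were 0 and 0 (0.031% and 1.89% of all tested genes). With a line left out, the ranges were 0 to 1 for ironomycin against control, 0 to 16 for both drugs against control, 0 to 12 for both drugs against ibrutinib, 5 to 15 for ironomycin over all libraries and 0 to 9 for the difference between lines in the ironomycin effect. In the same order, 0.0053% to 9.10%, 0.117% to 33.9%, 0.00559% to 28.9%, 13.2% to 39.7% and 1.68% to 13.2% of all tested genes passed. DESeq2 gave 5 members for ironomycin against control (12.4% of all tested genes) and 7 for that difference between lines (11.9%), and a filter at a mean of at least 10 reads gave 1 for the latter (8.77%). Library totals gave 17 for both drugs against control (29.4% of all tested genes), and moved the median log2 fold change of all tested genes from 0.04 to 0.13 for ironomycin over all libraries, where 20 members and 36.8% of all tested genes passed. A minimum log2 fold change of 1 left 1 member for both drugs against control, 2 for both drugs against ibrutinib, 1 for ironomycin over all libraries, 1 for the ironomycin effect by line and 19 of 45 for the difference between lines. The shares of all tested genes at this minimum were not counted. The causes were not tested, and the fits that leave libraries out also rest on fewer libraries. For all genes DESeq2 called 2308 for ironomycin against control, where edgeR called 109. With 1 library per line and treatment, the few reads of KDM5B, KDM7A and TET1 in JVM2 and of ASPH in JEKO1 limit the precision of their fold changes there.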
